A study of Mus musculus with 10 samples.

Results

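Molecular chaperones and the unfolded protein response were read in RNA sequencing counts from mouse retina as 40 genes, chosen by name from the 36115 genes of the deposited count table. All 40 were found once, and all 40 were among the 18965 genes with enough reads to test. They cover the cytosolic HSP70 and HSP90 chaperones, small heat-shock proteins, co-chaperones, mitochondrial chaperonins, chaperones of the endoplasmic reticulum (ER), and the sensors, transcription factors and targets of the unfolded protein response. The samples were retinas of naïve mice aged 3 months on a C57BL/6 background, in 5 wild-type libraries (W1 to W5) and 5 libraries labelled B6.129S2-Il6tm1Kopf/J (K1 to K5). That strain carries a germline insertion that interrupts Il6, the gene of an inflammatory cytokine, in every cell, so the contrast is not restricted to the retina. The labels give no sex, litter or batch, and nothing in them shows that each library is another animal. The p-values then reflect scatter among these libraries, which could be technical. Errors are over 5 libraries in each group.

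Chaperones bind unfolded proteins and release them in cycles driven by ATP. In the cytosol, J-domain proteins deliver clients to HSP70, nucleotide exchange factors such as HSP110 and BAG3 reset it, and HSP90 completes the folding of kinases and receptors, while the transcription factor HSF1 raises these genes under heat or proteotoxic stress. In the ER, the HSP70 protein BiP holds the sensors IRE1, PERK and ATF6 inactive until unfolded clients draw it away, after which XBP1, ATF4 and ATF6 switch on chaperones, and prolonged signalling induces CHOP. Rod photoreceptors make large amounts of rhodopsin in the ER, and misfolded rhodopsin is a known trigger of this response.

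Several members carry the ER stress response element in their promoters, the best known sequence through which ATF6 acts with NF-Y. The element was searched as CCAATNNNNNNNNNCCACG on both strands within 250 bases upstream of the annotated start, in RefSeq promoters on GRCm38.p6. It was found in 6 of the 33 members with a listed promoter and in 0.13% of 27025 genes. These promoters are shown because they belong to the ER chaperones described below. The element is in capitals, and each sequence reads in the direction of its gene.
Hspa5, chr2:34772025-34772043, plus strand: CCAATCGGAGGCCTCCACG
Calr, chr8:84847035-84847133, minus strand: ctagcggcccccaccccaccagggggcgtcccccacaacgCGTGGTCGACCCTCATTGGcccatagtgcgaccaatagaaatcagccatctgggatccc
Hsp90b1, chr10:86705598-86705694, minus strand: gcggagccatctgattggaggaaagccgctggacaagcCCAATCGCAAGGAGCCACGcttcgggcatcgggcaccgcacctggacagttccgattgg
Hsp90b1, chr10:86705510-86705591, minus strand: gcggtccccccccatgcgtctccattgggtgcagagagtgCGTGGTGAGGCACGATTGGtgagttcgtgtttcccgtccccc
Canx, chr11:50325760-50325858, minus strand: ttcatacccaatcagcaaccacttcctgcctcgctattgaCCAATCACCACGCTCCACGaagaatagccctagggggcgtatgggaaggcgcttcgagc
Pdia6, chr12:17266451-17266544, plus strand: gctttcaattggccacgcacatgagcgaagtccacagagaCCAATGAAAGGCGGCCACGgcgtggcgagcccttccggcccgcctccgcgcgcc
Dnajc3, chr14:118937787-118937885, plus strand: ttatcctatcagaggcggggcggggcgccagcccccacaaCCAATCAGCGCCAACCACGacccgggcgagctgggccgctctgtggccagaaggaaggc
Windows stop at annotated exon bases, and the Hspa5 element is printed alone because longer annotated transcripts have an exon there. The reverse complement of the element, beginning CGTGG, is the orientation in Calr and in the nearer element of Hsp90b1. Every element also contains the general CCAAT box, which 21 of the 33 members and 37.5% of all genes carry.

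The heat-shock element bound by HSF1 was searched in the same windows as the repeat GAANNTTCNNGAA, in either orientation. It was found in 3 of 33 members and in 0.514% of all genes. Hspd1 and Hspe1, which encode the mitochondrial chaperonin HSP60 and its partner HSP10, lie head to head on opposite strands and share a pair of overlapping elements, given here on the Hspe1 strand. Dnajb6, a J-domain protein that prevents aggregation, holds the other. The elements are printed alone, since longer annotated transcripts have exons there.
Hspe1, chr1:55088059-55088071, plus strand: TTCTAGAACCTTC
Hspe1, chr1:55088064-55088076, plus strand: GAACCTTCCGGAA
Dnajb6, chr5:29735852-29735864, plus strand: GAATCTTCCGGAA
The shorter palindrome GAANNTTC, contained in the repeat, was in 7 of 33 members, Hspa1a and Hspa1b among them, and in 7.73% of all genes. TGATGCAA, a composite C/EBP-ATF element bound by ATF4 and CHOP, was in 2 of 33 members, Chac1 and Herpud1, and in 0.918% of all genes. A match describes these letters only and does not show that a factor binds there.

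None of the 40 genes differed between the groups at an edgeR adjusted p under 0.05, where 2.03% of all tested genes did (385 genes). Calls higher in libraries labelled knockout were 163 genes (0.859%), and lower calls were 222 genes (1.17%). DESeq2 and limma-voom also called 0 members, and in the authors' deposited table the lowest adjusted p among them was 0.165, for Ddit3. At an unadjusted edgeR p under 0.05 there were 4 members (10%), all higher in libraries labelled knockout, against 13.8% of all tested genes in either direction and 6.78% higher. They were Ddit3, Pdia6, Atf4 and Xbp1. DESeq2 put 5 members and limma-voom 6 under that unadjusted level. No member had every library of one group above every library of the other, which 3.48% of tested genes had. The median log2 fold change was 0.05 over the 40 genes and 0.00 over all tested genes, and 26 members were positive and 14 negative. Fold changes are of libraries labelled knockout over wild type throughout. In whole retina, fewer cells of a type and less RNA per cell cannot be told apart.

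The intervals show what size of difference the data allow. The 95% interval of the fold change was taken from the standard error and edgeR's total degrees of freedom (15.2). It lay wholly between a 1.5-fold increase and a 1.5-fold decrease in 38 of 40 members. The exceptions were Trib3, whose upper bound was 1.525-fold, and Chac1, whose upper bound was 3.02-fold. Within a limit of 2-fold, Chac1 was the single exception. Mean counts per library ran from 154.5 for Chac1 to 53761 for Hsp90aa1 (median over members 2900.2).

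**Figure D1:**
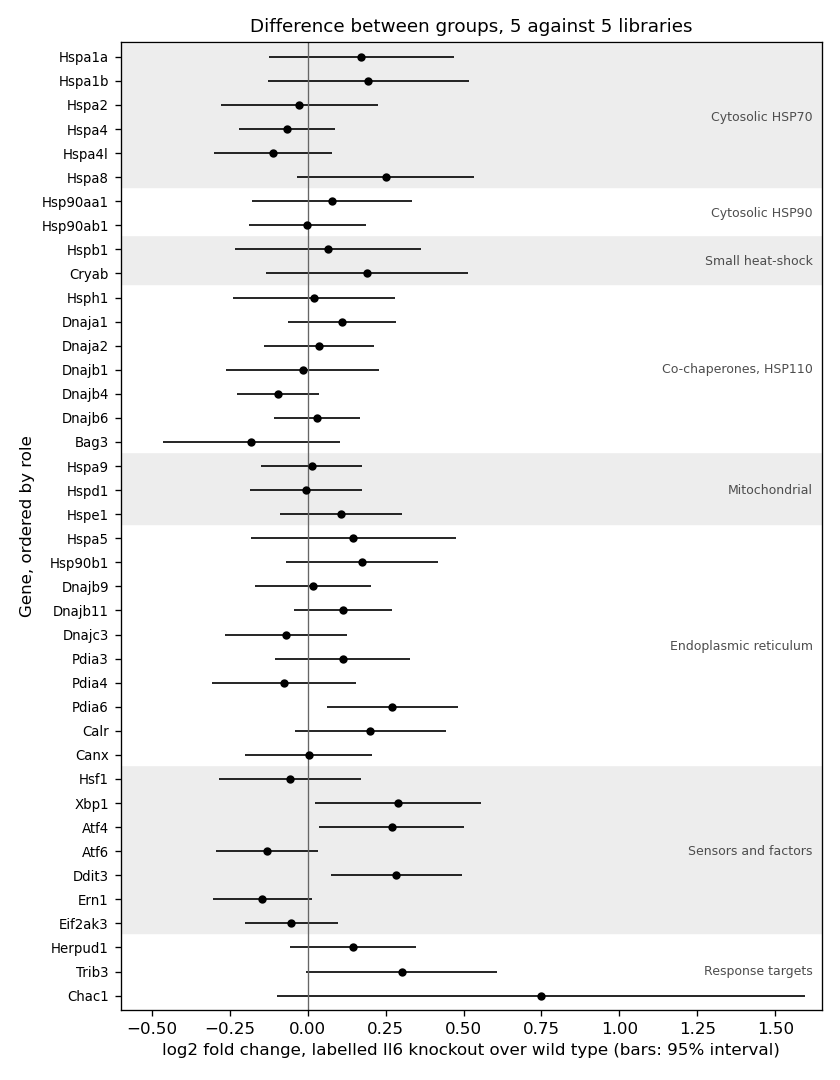
Log2 fold change of each of the 40 genes, libraries labelled Il6 knockout over wild type, ordered by role, with 95% intervals as bars (5 libraries in each group). Intervals of Ddit3, Pdia6, Atf4 and Xbp1 lie above 0 before adjustment for 18965 tests, and Chac1 has the widest interval.

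Depth and the levels of retinal cell markers overlapped between the groups. Total counts were 30433373 to 38857374 in wild type and 32783048 to 38517067 in libraries labelled knockout. Summed rod markers stood at 47021 to 62238 CPM (read counts scaled to library size) and 44702 to 64099.5 CPM, Muller glia markers at 4738 to 6494 and 4856 to 5828 CPM. No tested gene in the lists of retinal cell markers was called by edgeR. At an unadjusted p under 0.05, beside 13.8% of all tested genes, there were 2 of 5 endothelial cell and pericyte markers. There was also 1 gene each in the lists of rods, bipolar cells and Muller glia. These were Nr2e3, Cabp5 and Kcnj10, with log2 fold changes of 0.32, -0.43 and -0.32 (edgeR adjusted p = 0.143, 0.0506 and 0.201). All 5 endothelial cell and pericyte markers had positive log2 fold changes, with a median of 0.12. Lens markers, of which 12 of 15 were in the table, summed to 2.47 to 3.12 and 2.48 to 3.56 CPM. Pigment epithelium markers ranged from 17.5 CPM in W5 to 261 CPM in W2 and from 109 to 202 CPM in libraries labelled knockout. Il6 itself had 3 counts over the wild-type libraries and 22 over those labelled knockout, so its counts do not bear out the label. They cannot decide it either, because gene-level counts do not separate the interrupted part of the gene. Each direction below follows the labels.

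Levels between genes were compared as CPM per kilobase of exon. Length counts every annotated exon base, whether or not retina uses it, so the order of genes depends on the annotation. Hsp90aa1, the stress-inducible cytosolic HSP90, was the highest member at 379.9 ± 61.6 in wild type and 401 ± 56.2 in libraries labelled knockout (SD, n = 5), above 99.8% of tested genes. Hsp90ab1, the constitutive form, followed at 233 ± 25.5 and 233 ± 18.2, and Hspa8, the constitutive HSP70, at 180.5 ± 39.6 and 215 ± 30.5. Calr, the ER lectin calreticulin, stood at 155 ± 19.98 and 178 ± 29.5, Canx, its membrane-bound relative, at 103 ± 11.9 and 103 ± 11.4, and Atf4 at 97.4 ± 17.1 and 117 ± 12.2. The spreads of Hsp90ab1 and Hspa8 touch, as do those of Hspa8 and Calr and those of Canx and Atf4. All genes were read in the same libraries, so touching spreads do not settle the order of these neighbours, which was not tested. The lowest members were Chac1 at 2.01 ± 1.60 and 3.38 ± 0.586, Hspa2, an HSP70 of germ cells, at 3.10 ± 0.320 and 3.04 ± 0.361, Bag3 at 4.06 ± 0.801 and 3.58 ± 0.398, and Trib3 at 3.48 ± 0.725 and 4.29 ± 0.556.

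**Figure D2:**
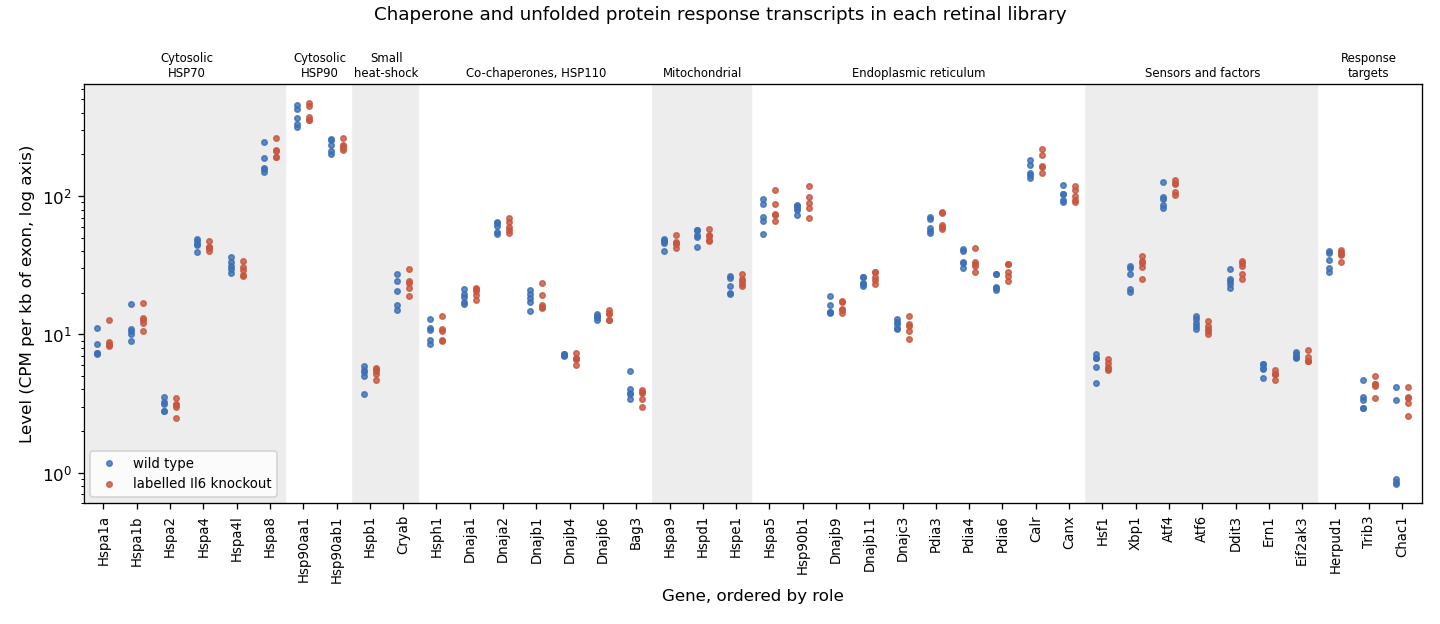
Level of each gene in each library as CPM per kilobase of exon on a log axis, blue for wild type and red for libraries labelled Il6 knockout. Hsp90aa1, Hsp90ab1, Hspa8 and Calr lie at the top in both groups, and the points of the groups overlap for every gene.

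Among the cytosolic HSP70 genes, 0 of 6 passed the test, and 3 were positive. Hspa8 (ENSMUSG00000015656.17, chromosome 9, 40800984 to 40810087, GRCm38) had 647, 814, 1058, 679.9 and 682 CPM in W1 to W5 and 1141, 909, 823, 925 and 818 CPM in K1 to K5. All 5 libraries labelled knockout were above the wild-type median, but W3 was above 4 of them, so the groups overlapped. Its log2 fold change was 0.25 ± 0.13 (SE), and the edgeR adjusted p was 0.434. Hspa4 and Hspa4l, exchange factors of the HSP110 family, had log2 fold changes of -0.07 and -0.11 (edgeR adjusted p = 0.759 and 0.639).

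Hspa1a and Hspa1b encode the HSP70 that is induced by heat and other acute stress. Hspa1a had 21.6, 25.3, 33.0, 21.3 and 21.6 CPM in W1 to W5 and 37.5, 26.3, 24.5, 24.9 and 25.3 CPM in K1 to K5. Hspa1b had 28.04, 29.5, 46.6, 25.0 and 30.9 CPM in W1 to W5 and 47.3, 29.8, 33.6, 36.5 and 35.8 CPM in K1 to K5. W3 and K1 were high in both genes, and the remaining libraries of the groups overlapped. The transcripts of the pair are 99.2% identical over 2201 bases, so reads may be split between them. Summed over the pair, wild-type libraries had 56.6 ± 13.3 CPM and those labelled knockout 64.3 ± 11.7 CPM (SD). In log2 units the differences were 0.17 ± 0.14 and 0.19 ± 0.15 (SE; edgeR adjusted p = 0.642 and 0.628). These values, and those of Hspa5, Hsp90b1, Dnajb1, Hsph1, Dnajb4, Trib3 and Chac1 below, were chosen for display after they had been seen.

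The cytosolic HSP90 pair did not pass either. Hsp90aa1 (chromosome 12, 110690605 to 110702728) had 1311, 1806, 1677, 1235 and 1437 CPM in W1 to W5 and 1776, 1468, 1393, 1853 and 1393 CPM in K1 to K5. W1 and W4 were below every library labelled knockout and K4 was above every wild-type library, and the other libraries overlapped. The log2 fold change was 0.08 ± 0.12 (SE; edgeR adjusted p = 0.835), and that of Hsp90ab1 was 0.00 with an interval of -0.19 to 0.19.

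Small heat-shock proteins hold aggregating proteins without ATP. Cryab, which encodes alpha-B-crystallin of lens and glia, had 22.2, 40.3, 35.9, 30.5 and 24.1 CPM in W1 to W5 and 36.02, 43.9, 34.5, 32.0 and 28.1 CPM in K1 to K5. W1 and W5 were low and the other libraries overlapped. The log2 fold change was 0.19 ± 0.15 (SE; edgeR adjusted p = 0.636). Cryab shares 252 exon bases with Hspb2 on the opposite strand, and the sources used here do not state whether counting used strand. Hspb1, which encodes HSP25, stood at 5.24 ± 0.846 and 5.48 ± 0.425 CPM.

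The co-chaperones comprised 7 genes, 4 positive and 3 negative, with log2 fold changes from -0.18 for Bag3 to 0.11 for Dnaja1. The highest per length was Dnaja2, a J-domain protein of HSP70, with 164, 189.8, 192, 158 and 180.3 CPM in W1 to W5 and 208, 178, 169.8, 192 and 161 CPM in K1 to K5. K1 was above every wild-type library, W4 was below every library labelled knockout, and the other libraries overlapped (log2 fold change 0.04 ± 0.08 SE, edgeR adjusted p = 0.896). Dnaja1 was close to Dnaja2 in CPM, at 161 ± 16.1 and 173 ± 14.4, but has 8629 annotated exon bases against 2975 for Dnaja2. Dnajb1 and Hsph1, a J-domain protein and an HSP110 that HSF1 induces, had log2 fold changes of -0.02 and 0.02. Both were highest in K1 and lowest in W4, at 74.9 and 47.6 CPM for Dnajb1 and at 98.2 and 61.7 CPM for Hsph1. Dnajb4 varied least in wild type, at 61.3 to 63.3 CPM, and 4 of the 5 libraries labelled knockout were below that range, at 53.0 to 59.6 CPM, while K4 was above it at 64.0 CPM (log2 fold change -0.09, edgeR adjusted p = 0.549).

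The 3 mitochondrial chaperones fold proteins imported into the matrix, and 0 passed the test. Hspd1 had 133, 150.1, 149.9, 114 and 137 CPM in W1 to W5 and 154, 137, 127, 139 and 124 CPM in K1 to K5. The groups overlapped, with a log2 fold change of -0.01 ± 0.08 (SE) and an interval of -0.19 to 0.17. Hspa9, the mitochondrial HSP70, stood at 198 ± 14.7 and 200 ± 16.9 CPM, and Hspe1 at 33.6 ± 4.58 and 36.1 ± 2.81 CPM. The annotated exons of Hspd1 and Hspe1 also overlap by 112 bases, so reads there can be assigned only by strand.

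Of the 10 ER chaperones and folding enzymes, 0 passed the test, 8 had a positive log2 fold change, and the median was 0.11. Pdia6, a protein disulfide isomerase (ENSMUSG00000020571.12, chromosome 12, 17266545 to 17284770), had 81.6, 102, 102, 78.2 and 82.8 CPM in W1 to W5 and 121, 99.7, 91.1, 121 and 106 CPM in K1 to K5. K1, K4 and K5 were above every wild-type library, and K2 and K3 lay between W2 and W3 above and the other wild-type libraries below. The log2 fold change was 0.27 ± 0.10 (SE), with an edgeR p of 0.0149 and an adjusted p of 0.214. Calr had 425, 527, 487, 387 and 412 CPM in W1 to W5 and 575, 470.3, 423, 629 and 473 CPM in K1 to K5. K1 and K4 alone were above all wild-type libraries (log2 fold change 0.20 ± 0.11, edgeR adjusted p = 0.473).

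Hspa5, which encodes BiP, the main ER HSP70 and the usual readout of ER stress, had 299.8, 372, 401, 224 and 280.1 CPM in W1 to W5 and 468, 311, 281, 369 and 315 CPM in K1 to K5. W4 was the lowest of all libraries, and K1 alone was above W3. The log2 fold change was 0.15 ± 0.15 (SE; edgeR adjusted p = 0.745). Hsp90b1, which encodes the ER HSP90 GRP94, was at 294 to 346 CPM in wild type and at 278 to 477 CPM in libraries labelled knockout (0.17, edgeR adjusted p = 0.550). Canx, the membrane lectin calnexin, and Dnajb9, an ER J-domain protein, had log2 fold changes of 0.00 and 0.02. Pdia4 and Dnajc3, an isomerase and a J-domain partner of BiP, had -0.08 and -0.07. Among the 6 members with the ER stress response element, log2 fold changes were positive in Hspa5, Calr, Hsp90b1, Pdia6 and Canx and negative in Dnajc3, and 0 passed the test.

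The sensors and transcription factors comprised 7 genes, of which 0 passed the test. At an unadjusted edgeR p under 0.05 there were 3, all higher, beside 13.8% of all tested genes in either direction and 6.78% higher. Ddit3, which encodes CHOP, the factor of prolonged ER stress (ENSMUSG00000025408.15, chromosome 10, 127290774 to 127296288), had 42.8, 39.5, 50.8, 37.0 and 41.3 CPM in W1 to W5 and 56.5, 58.4, 46.5, 53.1 and 43.0 CPM in K1 to K5. K1, K2 and K4 were above every wild-type library, and all 5 libraries labelled knockout were above 4 of the 5 wild-type libraries. The log2 fold change was 0.28 ± 0.10 (SE), with an edgeR p of 0.0113 and an adjusted p of 0.188, which was the lowest of the 40 genes. Ddit3 shares 68 exon bases with Mars on the opposite strand.

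Atf4, the factor whose translation rises when eIF2-alpha is phosphorylated, had 232, 203, 296, 194 and 223 CPM in W1 to W5 and 308, 290.2, 239, 292 and 255 CPM in K1 to K5. Every library labelled knockout was above W1, W2, W4 and W5, while W3 was above all of them except K1. Atf4 differed by 0.27 ± 0.11 (log2, SE), with an edgeR p of 0.0255 and an adjusted p of 0.279. Without W3 the adjusted p was 0.0570, and this was the lowest value of any member over all alternatives. Xbp1, whose mRNA IRE1 splices to its active form, had 88.8, 98.6, 102, 66.3 and 69.2 CPM in W1 to W5 and 110.4, 121, 81.9, 107 and 99.2 CPM in K1 to K5. K1, K2 and K4 were above every wild-type library, and W4 and W5 were below every library labelled knockout. Xbp1 differed by 0.29 ± 0.13 (log2, SE), with an edgeR p of 0.0356 and an adjusted p of 0.315. Gene-level counts do not separate the spliced from the unspliced form.

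The 3 sensors had negative log2 fold changes and did not pass. Ern1, which encodes IRE1, had a log2 fold change of -0.15 ± 0.07 (SE; edgeR adjusted p = 0.417), and 4 of 5 wild-type libraries were above every library labelled knockout. Atf6 had -0.13 ± 0.08 (edgeR adjusted p = 0.496) and Eif2ak3, which encodes PERK, -0.05 ± 0.07 (edgeR adjusted p = 0.805). Hsf1, the heat-shock factor, had 43.9 ± 7.71 and 42.2 ± 3.09 CPM, with W2 lowest at 31.7 CPM. The difference between the factors and the sensors in direction was not tested.

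The targets of the response comprised Herpud1, Trib3 and Chac1, which had positive log2 fold changes and did not pass. Herpud1, an ER membrane protein of protein degradation and the highest of these per length, had 80.7, 92.8, 90.3, 65.4 and 70.0 CPM in W1 to W5 and 94.98, 92.2, 89.1, 87.1 and 78.0 CPM in K1 to K5. W4 and W5 were below every library labelled knockout, and only K1 was above W2 (log2 fold change 0.14 ± 0.10, edgeR adjusted p = 0.551). Trib3, a pseudokinase that CHOP induces, had 7.40 ± 1.54 and 9.13 ± 1.18 CPM (0.30, edgeR adjusted p = 0.373).

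Chac1, an enzyme that degrades glutathione and is induced by ATF4, split the wild-type libraries. It had 5.48, 1.48, 6.77, 1.35 and 1.39 CPM in W1 to W5 and 5.26, 4.18, 5.73, 6.84 and 5.66 CPM in K1 to K5. W1 and W3 stood at the level of the libraries labelled knockout, and W2, W4 and W5 stood well below all of them. Its edgeR log2 fold change of 0.75 ± 0.40 (SE) was the largest of the 40 genes in size, and the edgeR adjusted p was 0.435. In the authors' deposited table Chac1 was not the largest, with a log2 fold change of 0.20 against 0.25 for Ddit3. The edgeR log2 fold change of Chac1 ran from 0.54 without W4 to 1.20 without W3 when 1 library was left out. The edgeR adjusted p values then ran from 0.135 to 0.658. The coefficient of variation was 79.6% in wild type and 17.3% in the other group, where the medians over members were 12.7% and 11.1%.

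**Figure D3:**
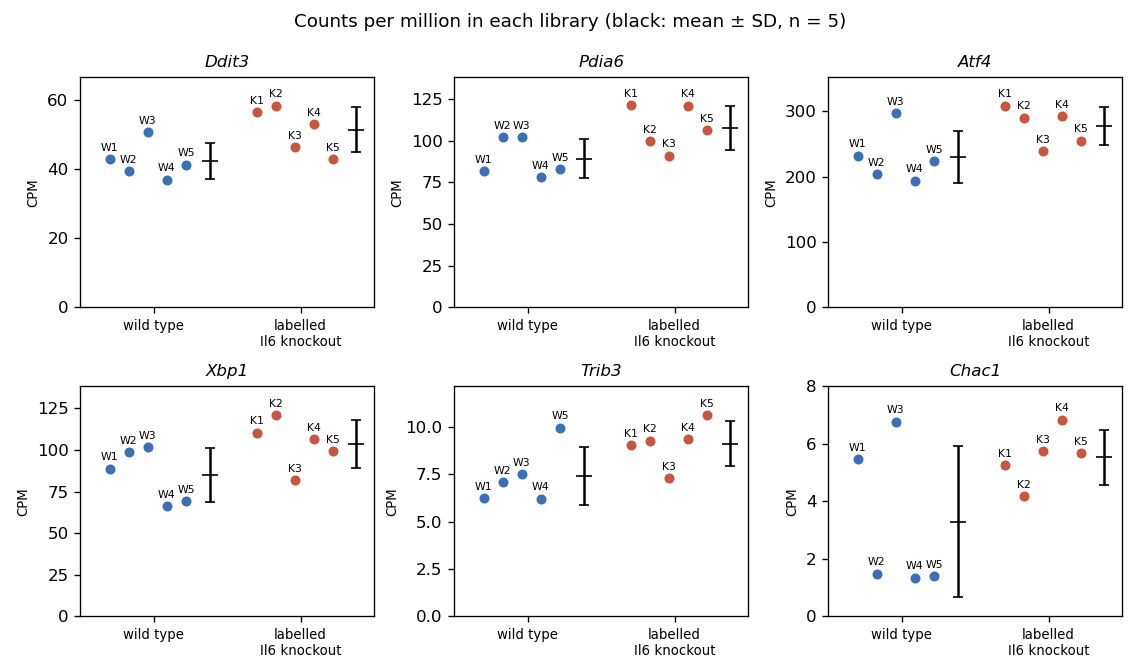
CPM of Ddit3, Pdia6, Atf4, Xbp1, Trib3 and Chac1 in each library on axes that start at 0, with mean ± SD in black (n = 5 in each group). The groups overlap in each panel, W3 stands above the other wild-type libraries in Ddit3 and Atf4, and W2, W4 and W5 lie low in Chac1.

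Members deviated together from library to library within each group. K1 was the highest of the 10 libraries in 18 of 40 genes and W4 the lowest in 24 of 40. The median deviation of the members from their own means was 0.18 (log2) in K1, 0.13 in W3, 0.08 in W2, 0.08 in K4 and -0.22 in W4. Library scaling sets the same median over all tested genes near 0. The shares of all tested genes that were highest in K1 or lowest in W4 were not counted. Whether other gene groups of this size deviate as much was not tested. The members' summed level was 9093 CPM in K1, 8506 CPM in W3 and 6459 CPM in W4, and the group means were 7497 ± 878 and 7965 ± 857 CPM. Within the ER, K1 or K4 was the highest library in 8 of the 10 ER chaperones and W4 the lowest in 6.

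The number of positive members was 26 with all libraries and depended on single libraries of both groups. It was 20 without W4 and 21 without K1, and it was 30 without W3 and 29 without W2, K3 or K5. The median log2 fold change over the members ran from 0.0053 without W4 to 0.11 without W2. W4 and K1 had similar depth, at 38857374 and 38517067 counts. Mitochondrial transcripts made up 3.04% and 3.41% of their counts, within the range of 2.98% to 4.44% over all libraries. Summed immediate early genes, which respond to handling and activity, were at 324 and 359 CPM, within 307 to 424 CPM. Summed rod markers were at 50816 CPM in W4 and at 64099.5 CPM in K1, which was the highest of all libraries. The part of these measures in the pattern was not tested.

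**Figure D4:**
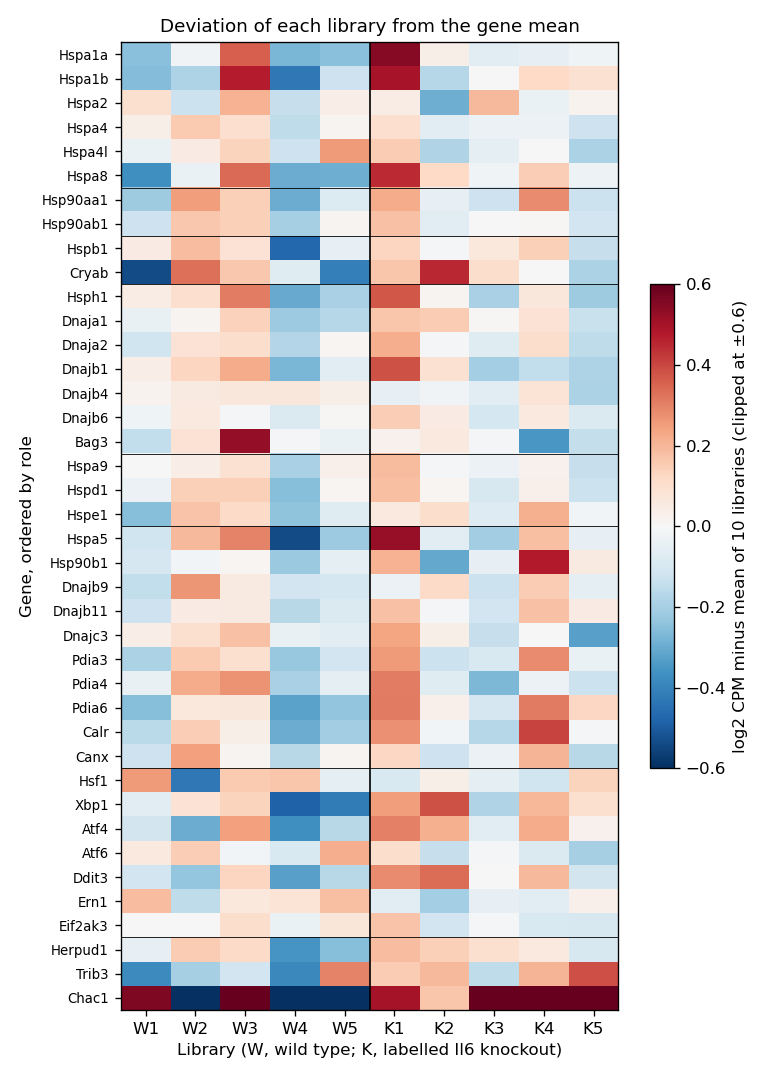
Log2 CPM of each of the 40 genes in each library minus the gene's mean over the 10 libraries, red above and blue below, with colours clipped at 0.6 in size. W4, a wild-type library, is blue and K1, a library labelled knockout, is red across most roles, while W2 and W3 are mostly red and K3 and K5 mostly blue.

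Further genes of these pathways were read from lists that leave out the 40 members. Of 53 tested cytosolic and mitochondrial chaperones, 0 passed the test and the median log2 fold change was 0.00. There were 2 under an unadjusted p of 0.05, beside 13.8% of all tested genes. The lowest p values belonged to Hspb6, a small heat-shock protein at 117 ± 12.1 and 93.4 ± 18.3 CPM, and Dnaja4, a J-domain protein at 20.5 ± 2.02 and 23.2 ± 1.28 CPM (edgeR adjusted p = 0.210 and 0.351). DESeq2 and limma-voom called 0 of these genes.

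Of 44 tested genes of ER folding and ER-associated degradation, 1 fell and 0 rose, and the median log2 fold change was 0.00. At an unadjusted p under 0.05 there were 7, beside 13.8% of all tested genes. The gene that fell was Txndc5, an ER protein disulfide isomerase (ENSMUSG00000038991.17, chromosome 13, 38500079 to 38528824). It had 70.6, 86.1, 83.3, 73.4 and 78.2 CPM in W1 to W5 and 71.4, 64.0, 57.1, 61.1 and 57.3 CPM in K1 to K5. K2 to K5 were below every wild-type library, and K1 was above W1 only. The log2 fold change was -0.33 ± 0.08 (SE), and the edgeR adjusted p was 0.0397. Leaving out 1 library at a time gave adjusted p values from 0.0150 to 0.112. The call was lost without W2, W3, W5, K2, K3, K4 or K5, and the 1 gene of 44 stands beside 1.17% of all tested genes called lower.

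Of 39 tested sensors, regulators and integrated stress response genes, 0 passed edgeR's test, and the median log2 fold change was 0.02. At an unadjusted p under 0.05 there were 10, beside 13.8% of all tested genes. The genes with the lowest p were Slc7a11, the cystine transporter that ATF4 induces, and Pmaip1, which encodes the cell death protein NOXA. Slc7a11 had 18.7, 3.37, 11.3, 10.9 and 17.6 CPM in W1 to W5 and 5.31, 4.57, 7.68, 5.37 and 5.87 CPM in K1 to K5. W2 was below every library labelled knockout and the other wild-type libraries were above all of them (log2 fold change -1.10 ± 0.32, edgeR adjusted p = 0.0971). Without W2 the adjusted p was 0.000645, and it was also under 0.05 without a low-count filter. Pmaip1 had a log2 fold change of -0.89 ± 0.26 (edgeR adjusted p = 0.0994) and was called by DESeq2 (adjusted p = 0.0424). Of 19 tested immediate early genes 0 passed and 5 were under an unadjusted p of 0.05, beside the same 13.8%, and of 4 tested lens genes 0 passed. The lowest p values there belonged to Nr4a3 and Zfp36 (log2 fold change -0.77 and 0.47, edgeR adjusted p = 0.297 and 0.316) and to Crybb1 and Crybb3 (0.65 and 0.17, edgeR adjusted p = 0.375 and 0.872).

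Near-identical copies could take reads from these genes, so they were counted. In transcripts of GENCODE M21, 14 members had 49 copies with at least 90% identity over at least 300 bases, and 42 of the copies are pseudogenes. Of the 16 pseudogene copies with enough reads to test, 13 had a positive log2 fold change and 0 were called. Hspa8 had the most tested copies, 6, which together held 2.31% of the reads of gene and copies in wild type and 2.12% in libraries labelled knockout. Copies of Dnajb6 held 10.2% and 11.4%, and copies of Hsp90aa1 1.69% and 1.85%. With the copies added, the log2 ratio of the group means was 0.25 for Hspa8, 0.05 for Dnajb6 and 0.08 for Hsp90aa1. These shares cover tested pseudogene copies and assigned reads only, and 40 of the 49 copies had deposited counts. Reads lost to the other copies, or discarded because they match several places, are not seen in them.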

How the data were processed

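The authors deposited whole-number counts of reads per gene, with no normalization, for 5 wild-type libraries and 5 libraries labelled Il6 knockout. Reads were 100 bp paired-end, per the labels. STAR 2.5.3a, featureCounts 1.15.2, DESeq2 1.14, bcl2fastq and FastQC are named, with the build GRCm38.p5, per the submitters' processing notes. How strand and reads matching several places were handled was not given in the sources used here. The same table holds the authors' own comparison of the groups. Its deposited log2 fold changes and deposited p-values were read for the members, and its deposited mean signal was not used.

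Genes were kept with filterByExpr (minimum count 10, minimum total count 15) and tested with edgeR 4.0.16 (TMM scaling, glmQLFit and glmQLFTest, with a term for genotype alone). Genes were called at a Benjamini-Hochberg adjusted p under 0.05 over all 18965 tested genes. Standard errors were derived from the log2 fold change and the F statistic. CPM uses TMM-scaled library sizes, and exon length is the union of exons in GENCODE M21. Alternatives used DESeq2 1.42.0, limma 3.58.1, other scaling, other filters and leaving out libraries, and the fits were tested on simulated data. Copies were sought with blastn 2.17.0. No libraries of a group differed by as little as sampling noise (lowest chi-square per degree of freedom 10.9).

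Replicate numbers follow accession order and pair no libraries. The 40 members and the further lists were chosen with earlier results of these data known, and lists are described by counts, with no set test. Values per library are given by rule for members with an unadjusted p under 0.05 and for the highest member per length of each role. The rule also covers members called or with groups that do not overlap, of which there were none. Library values of Hspa1a, Hspa1b, Hspa5, Hsp90b1, Dnajb1, Hsph1, Dnajb4, Trib3 and Chac1 were added outside the rule, after they had been seen. In the further lists the genes called are named, or else the 2 with the lowest p.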

Additional observations from a re-analysis of the deposited data

Results flagged for a closer look

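Within groups of 5 libraries, 98 sets of values were examined for a library that stands apart, by the gap to its nearest neighbour over the range of the group, and 4 were found. Chance gives about 1 in 20. Hspa1a stood at 37.5 CPM in K1, against 24.5 to 26.3 CPM in the other libraries labelled knockout. Hspa1b stood at 46.6 CPM in W3, against 25.0 to 30.9 CPM in the other wild-type libraries. Dnaja4, a J-domain protein outside the 40 genes, stood apart in the same libraries, at 24.1 CPM in W3 against 19.3 to 19.8 CPM and at 25.5 CPM in K1 against 22.4 to 22.9 CPM.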

How the results depend on the processing

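No paired analysis was possible because the labels give no replicate numbers, litters or batches that tie a wild-type library to one labelled knockout. No member was called under any of 17 alternatives (other scaling, DESeq2, limma-voom, other filters, and leaving out libraries), and the number under an unadjusted p of 0.05 was 4, with 2 without W4 or K4, 8 without W3 and 7 without W2 or without a low-count filter. The lowest mean count of a member was 154.5 per library, for Chac1. Direction was kept under all 17 in 25 of the 40 members, and 49 of 680 member values changed direction. Over all tested genes, the higher calls were 163, with 314 by DESeq2, 298 without a low-count filter and 71 (without K4) to 253 (without W2) when 1 library was left out. The lower calls were 222, with 388, 406 and 140 (without K4) to 289 (without W2) in the same order, and the higher calls were also few without K3 (93) and K5 (84). In the ER folding list the 1 lower call, Txndc5, became 0 to 1 when 1 library was left out. In the sensor and stress response list the 0 lower calls became 1 by DESeq2 (Pmaip1), 1 without a low-count filter (Slc7a11) and 0 to 1 when 1 library was left out. W4 and K1 were also left out together, chosen as the libraries with the lowest wild-type and the highest knockout-labelled member levels. That choice pushes fold changes down over the members as a set, though not in every gene, and says nothing about stability. In that setting 17 members were positive, and the log2 fold changes turned to -0.010 for Hspa1a, -0.084 for Hspa5, -0.080 for Hspa9, -0.030 for Hsp90aa1, -0.051 for Hspb1, -0.15 for Hsph1, -0.054 for Dnaja2, -0.024 for Dnajb6 and -0.068 for Canx. Hsp90ab1 turned to 0.0052 with upper-quartile scaling, 0.0016 with limma-voom and 0.0013 with a filter of 1 CPM in 5 libraries, and Hspd1 to 0.00070 with upper-quartile scaling. Leaving out 1 library at a time gave ranges that include 0 of -0.082 to 0.036 for Hspa2, -0.036 to 0.049 for Hspa9, -0.049 to 0.040 for Hsp90ab1, -0.029 to 0.12 for Hspb1, -0.065 to 0.031 for Hspd1, -0.081 to 0.11 for Hsph1, -0.016 to 0.079 for Dnaja2, -0.13 to 0.042 for Dnajb1, -0.0062 to 0.059 for Dnajb6, -0.019 to 0.092 for Dnajb9, -0.15 to 0.0023 for Hsf1, -0.050 to 0.070 for Canx and -0.030 to 0.37 for Crybb3. The cause of these changes was not tested.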
